A study of Mus musculus with 15 samples.

Results

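The cell division genes are 34 genes, chosen by symbol, whose products copy DNA, drive cells into mitosis or separate the chromosomes. All 34 were found among the 32479 genes with a deposited expression value, and all 34 passed the filter on low counts, with 18136 genes tested in all. RNA was sequenced from the submandibular gland, a salivary gland, of 15 mice in 3 groups of 5. The SJQYD group held NOD/LTJ mice given an agent that the labels name only as SJQYD, the model group held NOD/LTJ mice with no treatment, and the control group held ICR mice with no treatment. All 3 groups are labelled wild type, and the labels give neither age nor dose, nor how long SJQYD was given. NOD/LTJ mice become autoimmune, with lymphocytes entering their salivary glands, and ICR is an outbred stock, so model against control compares 2 strains, and SJQYD against control compares strain and treatment together.

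Most cells of an adult salivary gland are out of the cell cycle, and a gene used in S phase or mitosis is transcribed mainly in the few cells that are dividing. Such cells can be acinar or ductal cells of the gland, and they can also be lymphocytes, which divide when they meet antigen. During the cycle the helicase and nucleotide enzymes of replication come first, under E2F factors. The mitotic genes follow in G2. Their promoters often carry a CHR element, held by the DREAM repressor complex in resting cells and by B-Myb and Foxm1 in dividing cells, and CCAAT boxes bound by NF-Y. In a bulk sample, fewer dividing cells and less RNA per dividing cell cannot be told apart.

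Promoter sequences of 28 of the 34 genes were matched in RefSeq (GRCm38.p6), and 3 sets of short motifs were searched in the 250 bases before the start on both strands. The CHR of mitotic promoters was searched in its usual spelling, TTTGAA, and in a variant spelling, TTCGAA. The box bound by NF-Y was searched under its own letters, CCAAT. The E2F motif was searched in one form that reads GCGGGAA, and in another form that reads TTTGGCG. No motif of one set is contained in a motif of another. A CCAAT box stood in 24 of 28 promoters (85.7%), against 37.5% of all 27025 genes in the table. A CHR stood in 11 of 28 (39.3%), against 19.6% of all genes, and all 11 of these also held a CCAAT box, a pair found in 7.0% of all genes. One of the E2F forms stood in 3 promoters (10.7%), against 5.7% of all genes, and all 3 belonged to the 8 matched replication genes. A gene with several RefSeq starts was counted when any of its windows held a motif. Mcm7, counted under each of the 3 sets, is such a gene, and its windows lay inside the gene as the deposited coordinates place it. Such matches describe letters and not bound sites. Sequences are shown for a mitotic gene with many motifs (Top2a), the proliferation marker (Mki67), the mitotic kinase (Cdk1), a helicase subunit with E2F motifs (Mcm6) and the member with the smallest p (Tyms), each on the strand of its gene and upstream of the annotated gene. Capitals mark the motifs, on this strand or as their reverse complement.
Top2a (GRCm38.p6, chr11:99024190-99024339, minus strand): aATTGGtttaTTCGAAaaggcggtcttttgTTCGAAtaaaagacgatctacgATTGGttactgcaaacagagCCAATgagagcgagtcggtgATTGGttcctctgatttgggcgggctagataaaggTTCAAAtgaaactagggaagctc
Mki67 (GRCm38.p6, chr7:135716380-135716529, minus strand): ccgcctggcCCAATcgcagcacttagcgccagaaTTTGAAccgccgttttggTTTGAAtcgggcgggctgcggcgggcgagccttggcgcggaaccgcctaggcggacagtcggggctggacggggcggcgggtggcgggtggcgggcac
Cdk1 (GRCm38.p6, chr10:69352939-69353062, minus strand): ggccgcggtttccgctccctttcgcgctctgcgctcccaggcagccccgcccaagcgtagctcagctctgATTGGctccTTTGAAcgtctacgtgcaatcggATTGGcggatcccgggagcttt
Mcm6 (GRCm38.p6, chr1:128359706-128359855, minus strand): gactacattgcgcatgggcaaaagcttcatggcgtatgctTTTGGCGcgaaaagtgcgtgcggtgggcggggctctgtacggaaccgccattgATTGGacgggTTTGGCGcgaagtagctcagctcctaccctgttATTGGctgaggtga
Tyms (GRCm38.p6, chr5:30073626-30073775, minus strand): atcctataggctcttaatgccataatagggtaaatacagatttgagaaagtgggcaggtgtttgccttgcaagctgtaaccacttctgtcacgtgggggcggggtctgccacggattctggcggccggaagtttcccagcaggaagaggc
In these windows Top2a holds 3 CHR motifs and 4 CCAAT boxes, Mki67 2 CHR motifs and 1 CCAAT box, and Mcm6 2 E2F motifs and 2 CCAAT boxes. Tyms holds none of the letters searched. Top2a (chr11:98992943-99024189, ENSMUSG00000020914), Mki67 (chr7:135689784-135716361, ENSMUSG00000031004), Cdk1 (chr10:69335146-69352938, ENSMUSG00000019942), Mcm6 (chr1:128331590-128359664, ENSMUSG00000026355) and Tyms (chr5:30058202-30073617, ENSMUSG00000025747) are given at their GRCm38 positions, each a gene on the minus strand counted over its exons.

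Libraries held 39510018 to 68694263 counts, and 3 counts, taken as the floor, corresponded to 0.0290 to 0.0840 CPM. CPM is the read count divided by the TMM-scaled library size, with TMM factors from 0.594 to 1.85. Mucl2, a secretory product of the submandibular gland, took 15.5 to 53.8% of the counts. Together 4 products of the neighbouring parotid gland (Amy1, Bpifa2, Smr3a, Chia1) took 16.0% of counts in model 3, 6.50% in SJQYD 1, 4.17% in control 2, 2.11% in model 1 and at most 0.623% in the other libraries. Xist, which silences an X chromosome, had 1.01 CPM in SJQYD 3 and 162 to 270.2 CPM in the other 14, so summaries over the members, and the values of Mki67, are given with and without SJQYD 3. Nothing in the labels says how the mice of a group are related, and p-values measure the spread between these libraries.

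The 34 genes were transcribed at low levels. Per length, on the scale of the deposited FPKM, their median of the mean over 15 libraries was 0.296, against 0.994 over all genes tested, and 2 of the 34 lay above that median of all genes. These were Pcna, the sliding clamp of DNA polymerase, and Mcm7, a helicase subunit. Pcna averaged 2.29 ± 0.863 FPKM in SJQYD, 2.35 ± 0.560 FPKM in model and 1.99 ± 0.552 FPKM in control glands (SD, n = 5 each). Mcm7 averaged 2.17 ± 0.783 FPKM in SJQYD, 2.46 ± 0.630 FPKM in model and 1.52 ± 0.396 FPKM in control glands (SD, n = 5 each). The remaining helicase subunits followed from 0.760 FPKM for Mcm6 downwards, and Cenpf, a kinetochore protein, was lowest at 0.0263 FPKM. The FPKM values are scaled to the whole library, without the TMM step, and the groups overlapped for both leading genes. Nuf2 had at most 3 counts in 2 libraries, and Cdc20, Cenpf, Kif11 and Nusap1 in 1 library each, so their fold changes are the least precise.

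**Figure D1:**
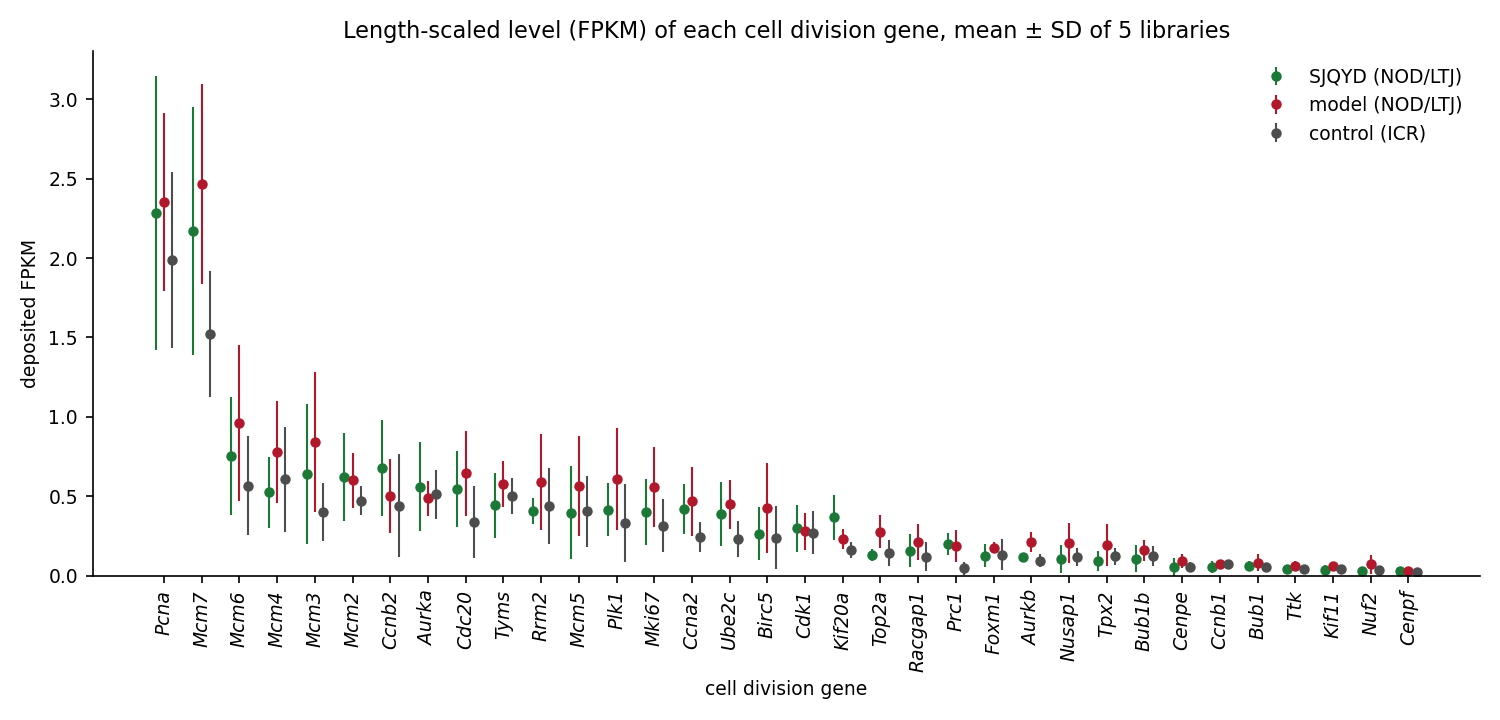
Mean deposited FPKM of each of the 34 cell division genes (vertical axis; points, mean; bars, SD of 5 libraries) in SJQYD, model and control glands, ordered from highest to lowest over 15 libraries. Pcna and Mcm7 average over 2 FPKM across the 15 libraries, and all other genes lie below 1 FPKM in every group mean.

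None of the 34 genes was called between SJQYD and model glands by the edgeR test (0 at an adjusted p under 0.05, against 2.75% of all 18136 genes). DESeq2 also called 0, as did limma on log2(FPKM + 1), whose filter kept 15 of the 34. At an unadjusted p under 0.05, 5 of the 34 were lower in SJQYD glands (Top2a, Tpx2, Aurkb, Tyms and Mcm7; 8.1% of all genes were lower at that level) and 1 was higher (Kif20a; 8.09% of all genes). The log2 fold change lay below 0 for 29 of the 34, against 53.2% of all genes tested, and its median was -0.51, against -0.03 over all genes. Without SJQYD 3 the median was -0.73, and without model 1 it was -0.36.

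None of the 34 was called between model and control glands either (background 5.07% of all genes), while DESeq2 called 1, Prc1, and limma on log2(FPKM + 1) called 0. At an unadjusted p under 0.05 Prc1 was higher and Aurka lower in model glands, beside 21.9% of all genes at that level in either direction. The log2 fold change lay above 0 for 21 genes and below 0 for 13, where 53.3% of all genes lay above 0, with a median of 0.12, against 0.03 over all genes. Without model 1 the median was -0.004. No member lacked overlap between these groups, where 5.77% of all genes did. Between SJQYD and control glands 2 of the 34 were called, Tyms as lower and Prc1 as higher, against 11.1% of all genes (5.9% lower and 5.22% higher). There 27 of the 34 lay below 0, against 46.7% of all genes, with a median of -0.44 against 0.04 over all genes. That median was -0.57 without SJQYD 3, -0.62 without control 4 and -0.23 without control 5. On the FPKM scale that median instead stood above 0, at 0.12 for log2(FPKM + 1), as did the median of all genes in that fit at 0.33. The 3 comparisons share their libraries in pairs, so their medians are not independent of each other.

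**Figure D2:**
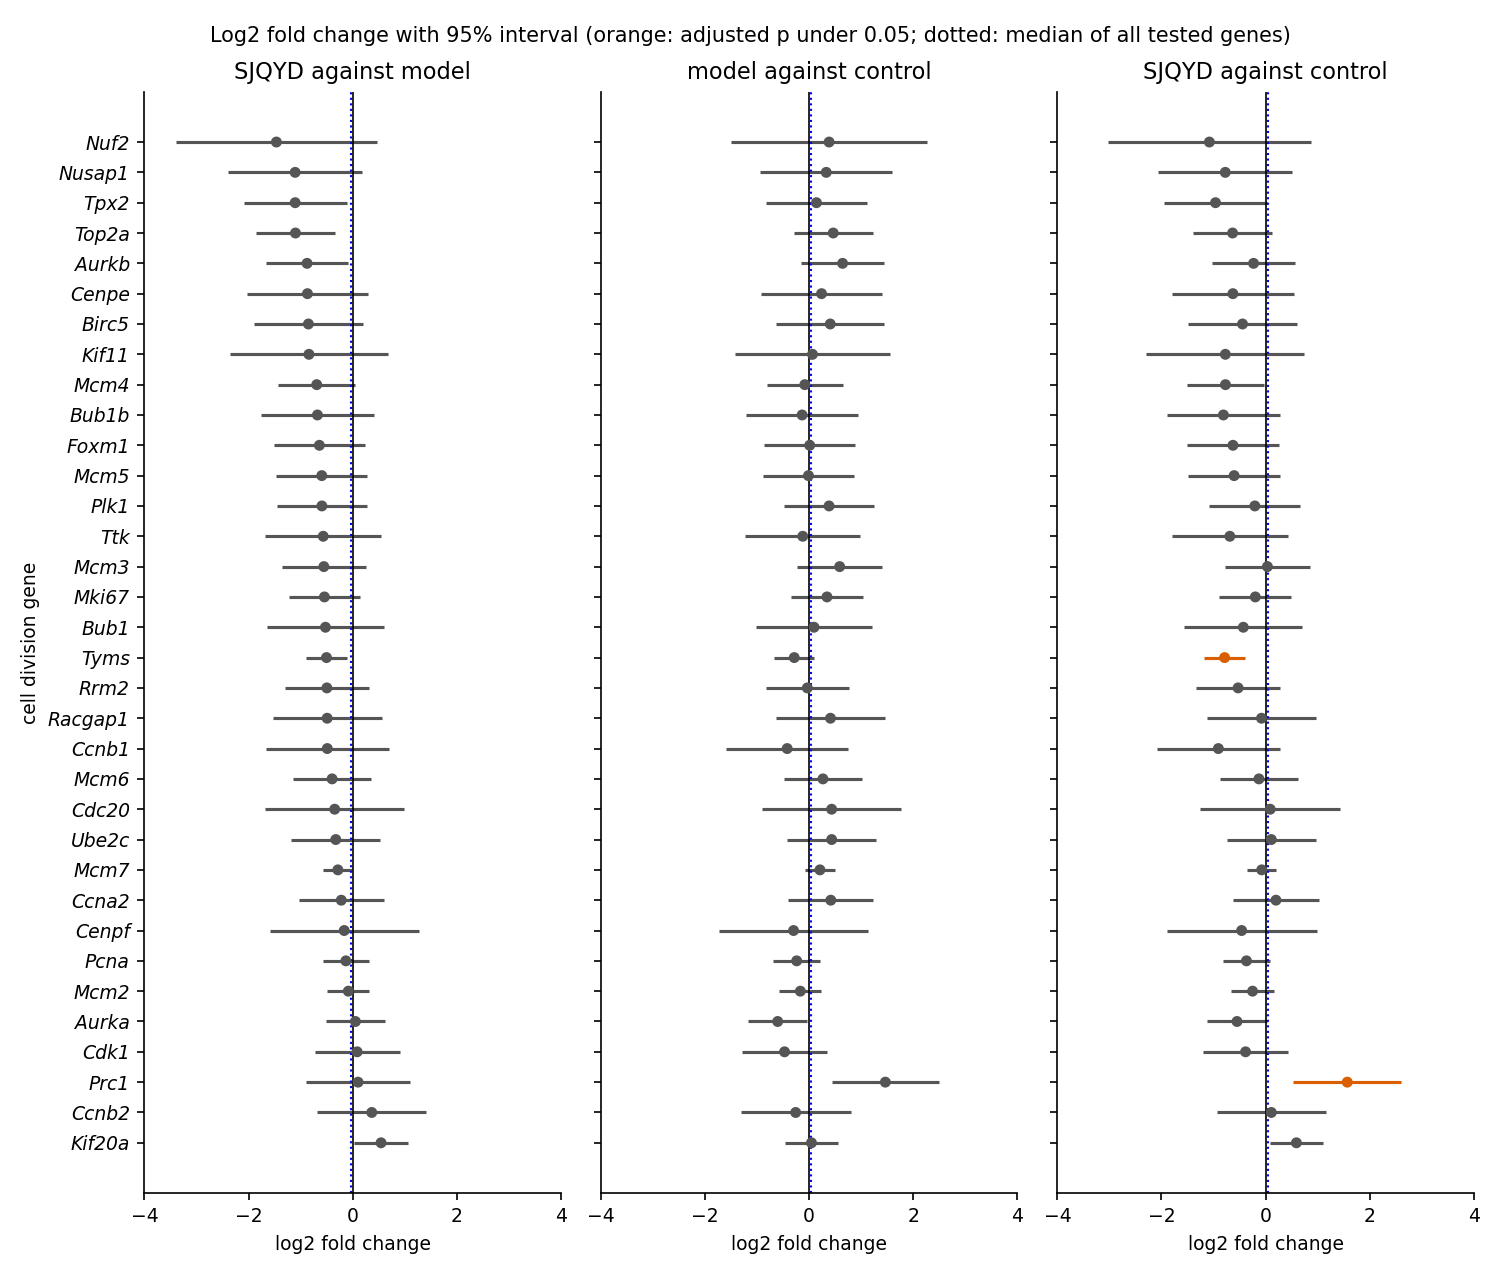
Log2 fold change of each cell division gene (horizontal axis; points, estimate; lines, 95% interval) for SJQYD against model, model against control and SJQYD against control, ordered by the first comparison. Most estimates of the first comparison lie left of 0 with intervals that cross it, and the genes called, in orange, are Tyms and Prc1 in SJQYD against control.

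The replication genes are the 6 subunits of the Mcm2 to Mcm7 helicase that opens the DNA, Pcna, Rrm2, a subunit of ribonucleotide reductase, and Tyms, which makes thymidylate. Of these 9 genes none was called between SJQYD and model glands or between model and control glands, and 1, Tyms, fell in SJQYD against control glands. Between SJQYD and model glands all 9 estimates lay below 0, with a median log2 fold change of -0.49, and the median was -0.03 for model against control and -0.37 for SJQYD against control. Without SJQYD 3 the medians were -0.55 for SJQYD against model and -0.57 for SJQYD against control, and without control 5 the second was -0.22. Without SJQYD 1 the first was -0.29. Their summed level was 32.0 ± 6.20 CPM in SJQYD, 40.5 ± 8.53 CPM in model and 39.7 ± 8.67 CPM in control glands (SD, n = 5 each), and the SJQYD mean was 29.2 ± 3.05 CPM without SJQYD 3 (SD, n = 4).

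Tyms stood at 2.84, 3.71, 2.17, 2.32 and 2.04 CPM in SJQYD 1 to 5, 3.57, 3.94, 4.47, 3.57 and 2.95 CPM in model 1 to 5, and 4.45, 4.63, 4.43, 3.85 and 5.20 CPM in control 1 to 5. All 5 SJQYD libraries lay below all 5 control libraries, whereas SJQYD and model overlapped. The 4 lowest of the 15 values were SJQYD libraries. Tyms averaged 2.62 ± 0.680 CPM in SJQYD and 4.51 ± 0.485 CPM in control glands (SD, n = 5 each), and the log2 fold change for SJQYD against control was -0.79 ± 0.18 (SE; 95% interval -1.17 to -0.40, edgeR adjusted p = 0.0121). It was the only member with no overlap between these groups, where 5% of all genes were lower without overlap. The call held in each of the 15 fits that left out 1 library (highest adjusted p 0.0356), and was lost on the FPKM scale, where the log2 fold change for log2(FPKM + 1) was -0.06 (limma adjusted p = 0.628). It was also lost without the 3 parotid-rich libraries and SJQYD 3 together (log2 fold change -0.75, edgeR adjusted p = 0.071). The Tyms log2 fold change for SJQYD against model was -0.50 ± 0.18 (SE; 95% interval -0.89 to -0.12, edgeR adjusted p = 0.167). The Tyms-ps pseudogene had 2 counts in all.

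Mcm7 stood at 9.66, 10.8, 8.65, 8.08 and 9.78 CPM in SJQYD 1 to 5, 12.5, 10.8, 12.9, 8.75 and 12.3 CPM in model 1 to 5, and 11.2, 11.4, 9.04, 8.43 and 9.40 CPM in control 1 to 5. Model libraries 1, 3 and 5 were the highest of the 15, and all 3 pairs of groups overlapped. The Mcm7 log2 fold change for SJQYD against model was -0.28 ± 0.13 (SE; 95% interval -0.56 to -0.00, edgeR adjusted p = 0.303), and for model against control it was 0.21 ± 0.13 (SE; adjusted p = 0.379, edgeR), and neither was called. Pcna stood at 4.46, 4.99, 8.29, 5.72 and 3.88 CPM in SJQYD 1 to 5, 6.74, 5.83, 5.03, 4.84 and 7.46 CPM in model 1 to 5, and 7.53, 6.32, 5.20, 6.46 and 9.75 CPM in control 1 to 5. The highest values were control 5 and SJQYD 3. Pcna shares sequence with Pcna-ps2, a pseudogene with 90 to 247 counts per library, against 211 to 534 for Pcna, so some of its reads could be split between both.

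Mcm2 stood at 4.57, 4.27, 5.20, 2.98 and 3.67 CPM in SJQYD 1 to 5, 5.25, 3.50, 4.85, 3.73 and 4.59 CPM in model 1 to 5, and 6.27, 4.77, 4.78, 3.34 and 5.49 CPM in control 1 to 5. The highest and the lowest value were control 1 and SJQYD 4, and all groups overlapped. Mcm3 stood at 2.55, 1.69, 4.42, 1.06 and 1.62 CPM in SJQYD 1 to 5, 4.92, 2.15, 2.76, 1.76 and 5.10 CPM in model 1 to 5, and 1.87, 2.61, 1.53, 1.67 and 3.39 CPM in control 1 to 5. The 3 highest values came from model 5, model 1 and SJQYD 3. Mcm4 stood at 1.48, 2.95, 2.08, 1.28 and 1.47 CPM in SJQYD 1 to 5, 3.64, 1.96, 2.26, 2.13 and 4.93 CPM in model 1 to 5, and 3.69, 4.52, 1.82, 1.54 and 4.20 CPM in control 1 to 5. Model 5, control 2 and control 5 were highest. The Mcm4 log2 fold change for SJQYD against control was -0.77 ± 0.35 (SE; 95% interval -1.51 to -0.03, edgeR adjusted p = 0.17), a difference that was not called.

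Mcm5 stood at 1.37, 0.824, 3.43, 1.09 and 0.996 CPM in SJQYD 1 to 5, 3.90, 1.80, 1.78, 1.36 and 2.84 CPM in model 1 to 5, and 2.15, 3.30, 1.55, 1.24 and 3.52 CPM in control 1 to 5. The highest values were model 1, control 5 and SJQYD 3, and the other 4 SJQYD libraries lay at or below 1.37 CPM. Mcm6 stood at 2.45, 3.12, 6.43, 2.53 and 3.13 CPM in SJQYD 1 to 5, 7.23, 3.47, 4.21, 2.53 and 5.76 CPM in model 1 to 5, and 3.19, 4.30, 2.41, 2.35 and 7.01 CPM in control 1 to 5. Its 4 highest values were model 1, control 5, SJQYD 3 and model 5. The 6 subunits form a ring, and for Mcm3, Mcm5 and Mcm6 alike, model 1, model 5, SJQYD 3 and control 5 were among the 5 highest libraries. This was not so for Mcm2, Mcm4 and Mcm7. Model 5 (4.59 CPM) lay outside the 5 highest for Mcm2, and SJQYD 3 for Mcm4 (2.08 CPM) and Mcm7 (8.65 CPM). Rrm2 ranged from 0.552 to 1.71 CPM in SJQYD, 0.894 to 2.84 CPM in model and 0.838 to 2.50 CPM in control glands.

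**Figure D3:**
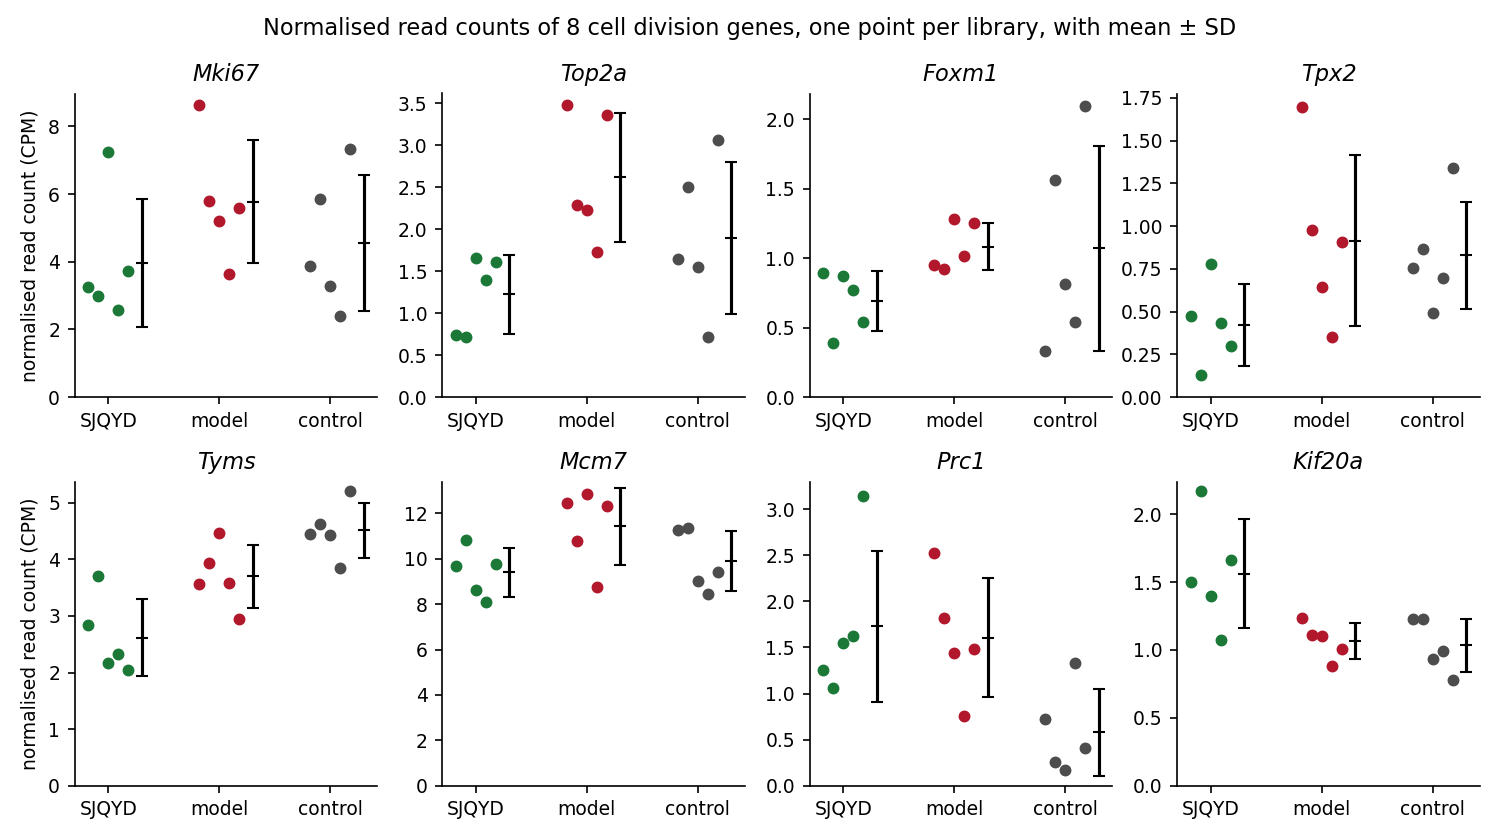
Normalised read counts (CPM, vertical axis from 0) of 8 cell division genes in SJQYD, model and control glands, each point a library and the bar beside it the mean ± SD of 5. Tyms lies between 2.04 and 3.71 CPM in SJQYD glands and between 3.85 and 5.20 CPM in control glands, Prc1 is lowest in control glands, and a single SJQYD library stands above the others for Mki67.

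The cyclins and kinases that drive mitosis, with Foxm1, the transcription factor that activates their genes, gave no call in any of the 3 comparisons (9 genes). Ccna2, Ccnb1 and Ccnb2 are the cyclins that activate Cdk1, and Plk1, Aurka, Aurkb and Ttk are kinases of the centrosome, the spindle and the kinetochore. Between SJQYD and model glands 6 of the 9 estimates lay below 0, with a median of -0.49. The median was -0.12 for model against control and -0.38 for SJQYD against control. Without SJQYD 3 it was -0.61 for SJQYD against model and -0.54 for SJQYD against control, while it was -0.25 for the first without model 5 and -0.22 for the second without SJQYD 1. For model against control it was 0.03 without model 4 and -0.36 without model 3.

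Cdk1 stood at 0.862, 1.11, 2.51, 0.793 and 2.41 CPM in SJQYD 1 to 5, 2.08, 0.978, 1.37, 1.20 and 1.60 CPM in model 1 to 5, and 2.57, 2.48, 1.18, 0.995 and 2.80 CPM in control 1 to 5. The highest values were control 5, control 1 and SJQYD 3, and the lowest was SJQYD 4. Ccnb1 stood at 0.155, 0.195, 0.497, 0.0755 and 0.314 CPM in SJQYD 1 to 5, 0.331, 0.146, 0.348, 0.354 and 0.561 CPM in model 1 to 5, and 0.588, 0.432, 0.591, 0.131 and 0.597 CPM in control 1 to 5. Its lowest library, SJQYD 4, held 4 counts. The pseudogene Ccnb1-ps had 3 to 12 counts in model libraries and 0 to 3 in the others, against 4 to 34 for Ccnb1. Whether reads were split between them was not tested. Cdk1 and Ccnb1, the kinase and cyclin that together start mitosis, thus showed wide ranges within each group and overlap between all of them.

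Aurkb stood at 0.203, 0.347, 0.497, 0.340 and 0.437 CPM in SJQYD 1 to 5, 0.748, 0.672, 0.683, 0.416 and 0.825 CPM in model 1 to 5, and 0.336, 0.558, 0.419, 0.244 and 0.576 CPM in control 1 to 5. Aurkb is the kinase of the chromosomal passenger complex, which corrects the attachment of chromosomes to the spindle. The 4 highest of the 15 libraries were model libraries, and model 4 lay among the other groups. The Aurkb log2 fold change for SJQYD against model was -0.87 ± 0.37 (SE; 95% interval -1.66 to -0.09, edgeR adjusted p = 0.248), and it was 0.64 ± 0.37 on the log2 scale (SE; adjusted p = 0.332, edgeR) for model against control. Aurka stood at 1.68, 1.15, 1.32, 1.04 and 1.59 CPM in SJQYD 1 to 5, 1.27, 1.10, 1.59, 1.17 and 1.42 CPM in model 1 to 5, and 2.60, 1.39, 1.92, 1.16 and 2.88 CPM in control 1 to 5. Aurka matures the centrosomes. Its 3 highest values were control 5, control 1 and control 3, and the other control libraries lay among the model libraries. Its log2 fold change for model against control was -0.60 ± 0.27 (SE; edgeR adjusted p = 0.199).

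Foxm1 stood at 0.891, 0.390, 0.869, 0.774 and 0.542 CPM in SJQYD 1 to 5, 0.949, 0.920, 1.28, 1.02 and 1.25 CPM in model 1 to 5, and 0.336, 1.57, 0.813, 0.544 and 2.10 CPM in control 1 to 5. All 5 SJQYD libraries lay below all 5 model libraries, with 0.891 and 0.920 CPM as the nearest values, while control libraries spread on both sides of both groups. Foxm1 was 1 of 2 members with no overlap between SJQYD and model, where 2.29% of all genes were lower without overlap. Its edgeR adjusted p for that comparison was 0.494. The remaining genes of this group ranged from 0.988 to 2.58 CPM in SJQYD, 0.878 to 3.45 CPM in model and 0.713 to 2.71 CPM in control glands for Ccna2, from 0.547 to 1.74 CPM in SJQYD, 0.431 to 1.21 CPM in model and 0.188 to 1.62 CPM in control glands for Ccnb2, from 0.607 to 1.17 CPM in SJQYD, 0.601 to 2.03 CPM in model and 0.375 to 1.89 CPM in control glands for Plk1 and from 0.113 to 0.326 CPM in SJQYD, 0.154 to 0.488 CPM in model and 0.144 to 0.560 CPM in control glands for Ttk. Ccna2 shares 12.5% of its exon bases with Exosc9 on the opposite strand, and how the counting treated strand is not given in the sources used here. The pseudogene Ccnb2-ps had 8 to 90 counts per library, against 10 to 112 for Ccnb2, and 67 against 10 in control 4. Some Ccnb2 reads could be split between both.

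The genes of the spindle checkpoint, kinetochore and anaphase gave no call in any comparison (8 genes). Bub1 and Bub1b hold the checkpoint until chromosomes are attached, Cenpe, Cenpf and Nuf2 sit at the kinetochore, Cdc20 and Ube2c work with the anaphase-promoting complex, and Birc5 belongs to the chromosomal passenger complex. Between SJQYD and model glands all 8 estimates lay below 0, with a median of -0.60, and the medians were 0.31 for model against control and -0.45 for SJQYD against control. Without SJQYD 3 they were -0.78 for SJQYD against model and -0.65 for SJQYD against control, without model 5 the first was -0.46, and without control 5 the second was -0.31. For model against control the median was -0.003 without model 1. Their summed level ran from 3.00 to 7.74 CPM in SJQYD, 4.28 to 9.98 CPM in model and 2.78 to 9.11 CPM in control glands.

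Of these 8 genes, Cdc20, Cenpf and Nuf2 had at most 3 counts in 1 or 2 libraries, and the other 5 had at least 4 counts in every library. Bub1b ranged from 0.173 to 1.09 CPM in SJQYD, 0.350 to 1.32 CPM in model and 0.282 to 1.46 CPM in control glands. Bub1 ranged from 0.155 to 0.332 CPM in SJQYD, 0.234 to 0.661 CPM in model and 0.0985 to 0.597 CPM in control glands. Cdc20 ranged from 0.629 to 1.47 CPM in SJQYD, 0.524 to 1.93 CPM in model and 0 to 1.77 CPM in control glands, with 0 counts in control 3 only. The groups overlapped for each of these genes. Birc5 ranged from 0.510 to 1.15 CPM in SJQYD, 0.657 to 2.71 CPM in model and 0.443 to 2.21 CPM in control glands, and its 2 highest libraries were model 5 and model 1. Ube2c ranged from 0.359 to 1.63 CPM in SJQYD, 0.774 to 1.80 CPM in model and 0.493 to 1.58 CPM in control glands, with 22.8% of its exon bases shared with Tnnc2 on the opposite strand. Cenpe, Cenpf and Nuf2 did not exceed 1.16 CPM in any library, and Nuf2 was at 0 in SJQYD 4 and control 4.

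The genes of chromosome structure, the spindle and cytokinesis were 8, with Top2a and Prc1 among them. None was called between SJQYD and model or between model and control, and Prc1 rose in SJQYD against control glands. Between SJQYD and model glands 6 of the 8 estimates lay below 0, with a median of -0.69. All 8 lay above 0 for model against control, with a median of 0.34, and 6 lay below 0 for SJQYD against control, with a median of -0.42. Without SJQYD 3 the medians were -1.11 for SJQYD against model and -0.67 for SJQYD against control, without SJQYD 4 the first was -0.47, and without control 5 the second was -0.17. For model against control the median was 0.11 without model 1 and 0.52 without control 5.

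Top2a stood at 0.736, 0.715, 1.66, 1.40 and 1.61 CPM in SJQYD 1 to 5, 3.48, 2.29, 2.23, 1.73 and 3.37 CPM in model 1 to 5, and 1.65, 2.50, 1.55, 0.713 and 3.06 CPM in control 1 to 5. Top2a is the topoisomerase that untangles sister chromosomes. All 5 SJQYD libraries lay below all 5 model libraries, with 1.66 and 1.73 CPM as the nearest values, and control libraries covered nearly the whole range of both. Top2a averaged 1.22 ± 0.465 CPM in SJQYD and 2.62 ± 0.767 CPM in model glands (SD, n = 5 each), and the log2 fold change for SJQYD against model was -1.10 ± 0.36 (SE; 95% interval -1.87 to -0.33, edgeR adjusted p = 0.125). In no alternative did it pass the threshold (adjusted p from 0.0505 to 0.434). For SJQYD against control it was -0.63 ± 0.36 on the log2 scale (SE; adjusted p = 0.285, edgeR), and for model against control it was 0.46 ± 0.36 on the log2 scale (SE; adjusted p = 0.489, edgeR).

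Mki67 stood at 3.26, 2.99, 7.25, 2.59 and 3.74 CPM in SJQYD 1 to 5, 8.64, 5.78, 5.21, 3.65 and 5.59 CPM in model 1 to 5, and 3.86, 5.85, 3.28, 2.40 and 7.34 CPM in control 1 to 5. Mki67 encodes the antigen Ki-67, which coats mitotic chromosomes and marks cells in cycle. Model 1, control 5 and SJQYD 3 stood above 7 CPM, 1 library from each group, and the groups overlapped throughout. The Mki67 log2 fold change for SJQYD against model was -0.54 ± 0.33 (SE; 95% interval -1.23 to 0.15, edgeR adjusted p = 0.453). Without SJQYD 3 it was -0.88 (adjusted p = 0.151), and without model 1 it was -0.35 (adjusted p = 0.729). For model against control it was 0.34 ± 0.33 on the log2 scale (SE; adjusted p = 0.585, edgeR), with 0.15 without model 1 and 0.59 without control 5. For SJQYD against control it was -0.20 ± 0.33 on the log2 scale (SE; adjusted p = 0.755, edgeR), -0.53 without SJQYD 3 (adjusted p = 0.292), 0.0433 without control 5 and 0.0897 for log2(FPKM + 1).

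Tpx2 stood at 0.474, 0.130, 0.776, 0.434 and 0.297 CPM in SJQYD 1 to 5, 1.70, 0.978, 0.641, 0.354 and 0.908 CPM in model 1 to 5, and 0.756, 0.864, 0.493, 0.695 and 1.34 CPM in control 1 to 5. Tpx2 activates Aurka and builds spindle microtubules. Its SJQYD values lay in the lower part of the range, with 4 of 5 at or below 0.474 CPM, and model 4 lay among them. The Tpx2 log2 fold change for SJQYD against model was -1.10 ± 0.47 (SE; 95% interval -2.09 to -0.12, edgeR adjusted p = 0.242). Kif11, the motor that pushes spindle poles apart, Nusap1, which bundles microtubules, and Racgap1, which places the cleavage furrow, ranged from 0 to 0.652 CPM in SJQYD, 0.248 to 0.809 CPM in model and 0.188 to 0.864 CPM in control glands for Kif11, from 0.0217 to 0.667 CPM in SJQYD, 0.350 to 1.45 CPM in model and 0.432 to 0.954 CPM in control glands for Nusap1 and from 0.672 to 2.44 CPM in SJQYD, 0.832 to 2.76 CPM in model and 0.526 to 2.18 CPM in control glands for Racgap1.

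Prc1 stood at 1.26, 1.06, 1.55, 1.62 and 3.14 CPM in SJQYD 1 to 5, 2.53, 1.83, 1.44, 0.755 and 1.49 CPM in model 1 to 5, and 0.728, 0.252, 0.172, 1.33 and 0.411 CPM in control 1 to 5. Prc1 bundles the microtubules of the midzone, where the cell divides. Its 4 lowest values were control libraries, and control 4 lay among the SJQYD and model libraries. Prc1 averaged 1.73 ± 0.823 CPM in SJQYD and 0.579 ± 0.472 CPM in control glands (SD, n = 5 each), and the log2 fold change for SJQYD against control was 1.57 ± 0.49 (SE; 95% interval 0.53 to 2.61, edgeR adjusted p = 0.0489). The model group averaged 1.61 ± 0.646 CPM, and against control it was higher by 1.47 ± 0.49 on the log2 scale (SE; adjusted p = 0.0913, edgeR), which was not called. Between SJQYD and model Prc1 had an adjusted p of 0.952. The call for SJQYD against control was at the edge of the threshold, and it was lost in 13 of the 15 fits that left out 1 library (all but those without control 4 or model 4), with adjusted p-values up to 0.126. It was also lost under the replicate block (adjusted p = 0.0614) and without the 3 parotid-rich libraries (adjusted p = 0.102). For model against control DESeq2 gave an adjusted p of 0.036, and without control 4 the log2 fold change was 2.05 (edgeR adjusted p = 0.03).

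Prc1 shares 911 exon bases (11.1%) with Rccd1 on the opposite strand. Rccd1 averaged 16.6 ± 3.20 CPM in SJQYD glands and 10.8 ± 1.55 CPM in control glands, and was itself called higher (log2 fold change 0.63 ± 0.16 (SE), edgeR adjusted p = 0.0188). Its level was many times that of Prc1, and whether its reads add to the Prc1 counts was not tested. Kif20a, a motor of cytokinesis, ran the other way from most members. Kif20a stood at 1.50, 2.17, 1.40, 1.08 and 1.66 CPM in SJQYD 1 to 5, 1.24, 1.11, 1.10, 0.878 and 1.01 CPM in model 1 to 5, and 1.23, 1.22, 0.936, 0.995 and 0.782 CPM in control 1 to 5. Its highest 4 libraries were SJQYD libraries, and SJQYD 4 lay among the other groups. The Kif20a log2 fold change for SJQYD against model was 0.55 ± 0.24 (SE; 95% interval 0.04 to 1.06, edgeR adjusted p = 0.268), and it was 0.59 ± 0.24 on the log2 scale (SE; adjusted p = 0.127, edgeR) for SJQYD against control. Kif20a shares 29.3% of its exon bases with Cdc23 on the opposite strand, and Cdc23 averaged 12.8 ± 1.94 CPM in SJQYD, 12.5 ± 2.32 CPM in model and 11.2 ± 1.09 CPM in control glands. In all, 10 members share exon bases with another gene.

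Within each group, single libraries were high or low for many members at once. Summed over the 34 genes, the level was 49.8, 52.4, 77.2, 43.9 and 53.9 CPM in SJQYD 1 to 5, 91.5, 60.7, 70.5, 49.2 and 86.6 CPM in model 1 to 5, and 70.5, 76.6, 51.3, 44.7 and 89.8 CPM in control 1 to 5. The mean was 55.4 ± 12.7 CPM in SJQYD, 71.7 ± 17.6 CPM in model and 66.6 ± 18.5 CPM in control glands (SD, n = 5 each). The highest of the 15 values was reached in model 1 by 9 genes and in model 5 and control 5 by 8 genes each, and the lowest in SJQYD 4 by 12 genes and in control 4 by 8 genes. Within the SJQYD group, SJQYD 3 was highest for 23 of the 34 genes, and within the control group control 5 was highest for 21. The same counts were not made over all genes tested, so whether they are particular to these 34 genes is not known. Without SJQYD 3, whose Xist level stood apart, the SJQYD mean was 49.5 CPM.

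**Figure D4:**
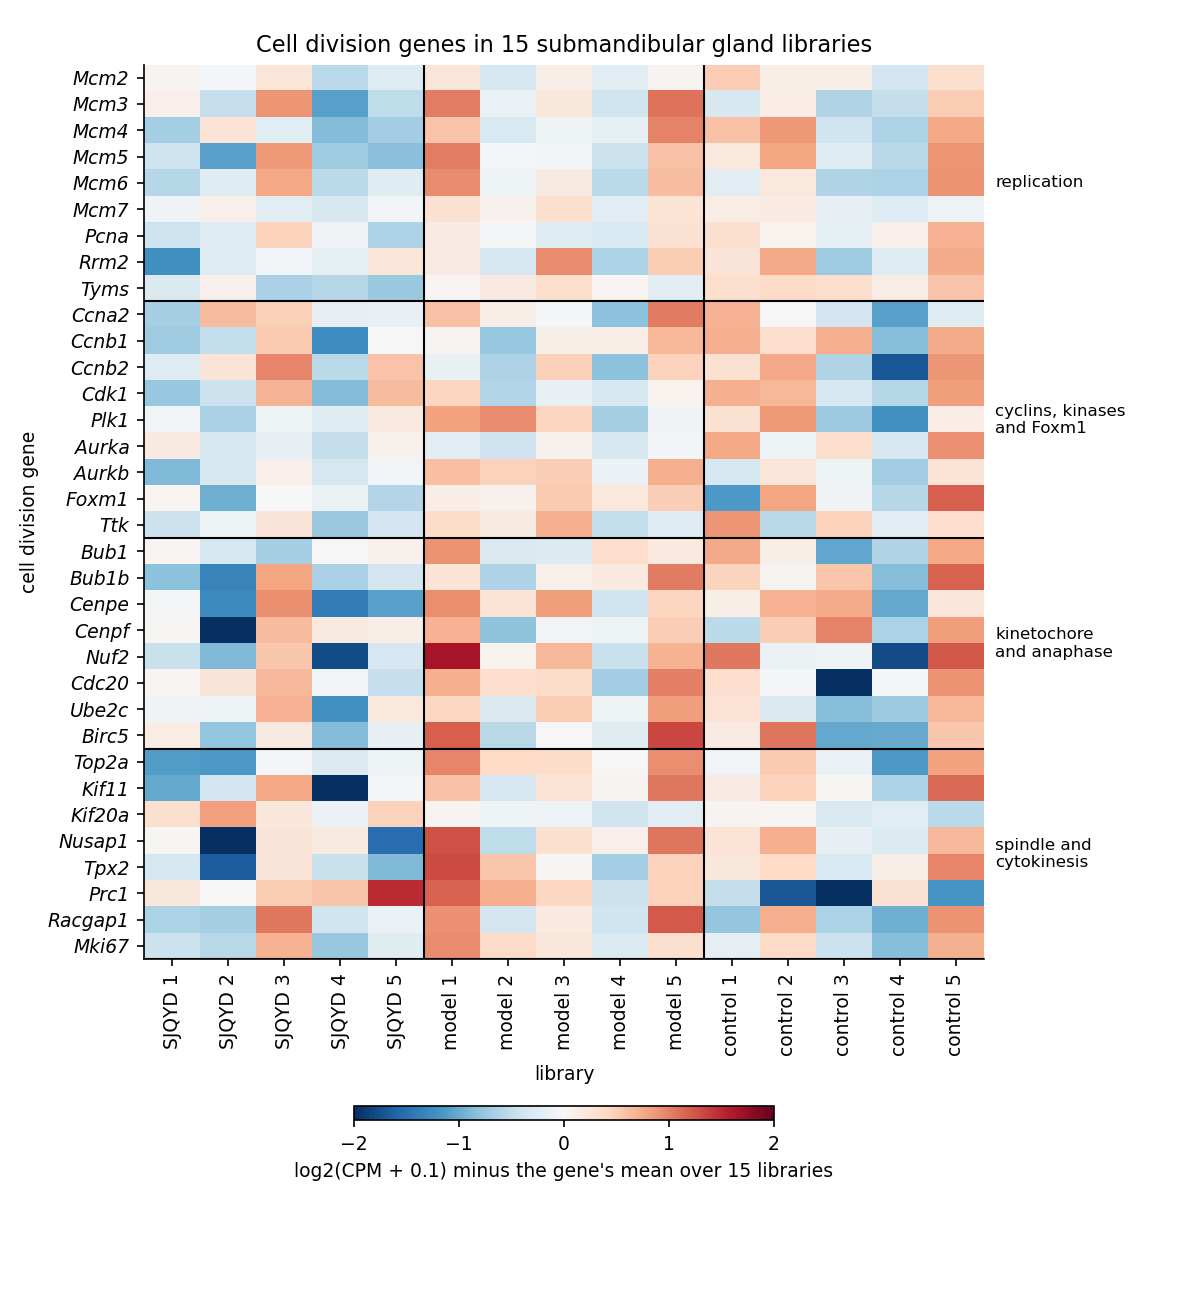
Each square (color) gives log2(CPM + 0.1) of a cell division gene minus its mean over 15 libraries, with libraries in columns (SJQYD, model, control), genes in rows by role, and colors clipped at -2 and 2. Columns are mostly red in model 1, model 5 and control 5 and mostly blue in SJQYD 4 and control 4, and SJQYD 3 is the highest SJQYD library for 23 of the 34 genes.

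Markers of lymphocytes differed between the same libraries. The 9 T cell markers summed to 20.6, 34.8, 99.8, 8.04 and 17.3 CPM in SJQYD 1 to 5, 160.5, 28.5, 26.9, 20.4 and 146 CPM in model 1 to 5, and 12.1, 73.0, 5.10, 4.66 and 10.4 CPM in control 1 to 5. In the NOD/LTJ groups the 3 libraries with the highest T cell marker sums were model 1, model 5 and SJQYD 3. These were also the 3 with the highest sums of the 25 mitotic genes, at 42.2, 38.6 and 35.1 CPM. Below them the order differed. Model 3 was next for mitotic genes at 29.4 CPM, with 26.9 CPM of T cell markers. SJQYD 2 was next for T cell markers at 34.8 CPM, with 18.8 CPM of mitotic genes. In the control group, control 2 held 73.0 CPM of T cell markers and 32.3 CPM of mitotic genes, whereas control 5 had 39.4 CPM of mitotic genes with 10.4 CPM of T cell markers. No T cell marker was at 0 in any library.

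The 8 B cell markers summed to 13.0, 44.4, 54.0, 11.4 and 20.6 CPM in SJQYD 1 to 5, 88.6, 51.6, 65.5, 45.4 and 37.3 CPM in model 1 to 5, and 12.8, 80.2, 0.0985, 3.59 and 6.07 CPM in control 1 to 5. In control 3, 7 of the 8 B cell markers had 0 counts. The 34 cell division genes there summed to 51.3 CPM, within a control range of 44.7 to 89.8 CPM. Germinal centre B cell markers, of cells that divide rapidly, summed to 20.5 to 27.0 CPM in SJQYD, 19.7 to 29.7 CPM in model and 22.8 to 32.7 CPM in control glands. Of the 9 T cell, 8 B cell and 5 tested germinal centre markers none was called in any comparison. Over all genes 5.07% were called for model against control, 2.75% for SJQYD against model and 11.1% for SJQYD against control. In that order the T cell medians were 2.03, -1.09 and 0.84, and the B cell medians 1.56, -1.05 and 0.44. All 9 T cell and all 8 B cell estimates lay above 0 for model against control and below 0 for SJQYD against model. At an unadjusted edgeR p under 0.05, 4 T cell markers and 1 B cell marker were higher in model than control glands, against 11.6% of all genes. The germinal centre medians were 0.04 for model against control, -0.13 for SJQYD against model and 0.30 for SJQYD against control. The part of lymphocytes in the levels of the cell division genes was not tested.

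**Figure D5:**
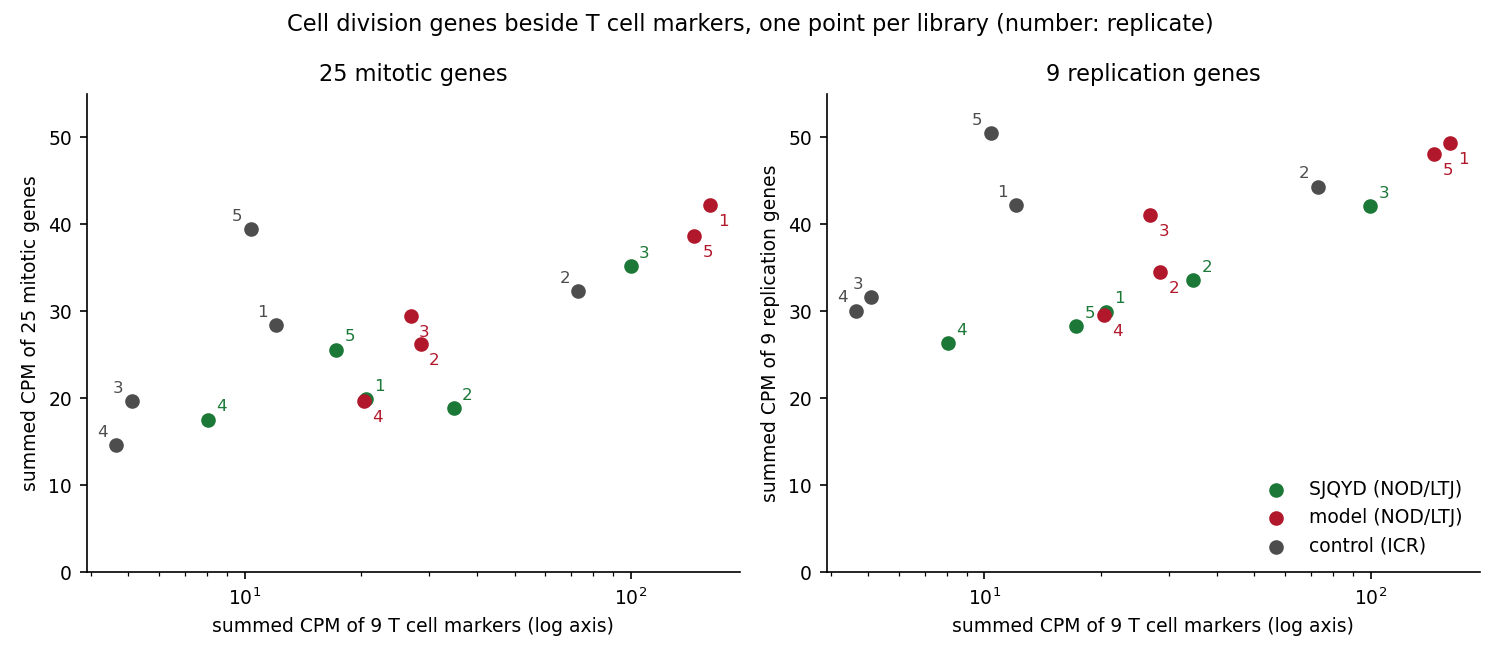
Summed CPM of the 25 mitotic genes (left) and the 9 replication genes (right) against the summed CPM of 9 T cell markers (log axis), each point a library numbered by replicate. Model 1, model 5 and SJQYD 3 lie at the upper right, and control 5 lies high with 10.4 CPM of T cell markers.

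Among other markers, macrophage genes summed to 58.4 to 79.5 CPM in SJQYD, 87.5 to 111 CPM in model and 55.9 to 99.3 CPM in control glands, with no overlap between SJQYD and model. All 6 estimates lay below 0 for SJQYD against model. At an unadjusted edgeR p under 0.05, 5 were lower (8.1% of all genes), and 3 were lower without overlap (2.29% of all genes). One of the 6 was called there, where 2.75% of all genes were called. This was C1qa, a complement component, which averaged 23.3 ± 4.23 CPM in SJQYD and 35.5 ± 3.20 CPM in model glands (edgeR adjusted p = 0.0489). The C1qa call was lost in 12 of the 15 fits that left out 1 library (all but those without control 2, control 5 or SJQYD 5; adjusted p up to 0.136), without the 3 parotid-rich libraries (0.19) and on the FPKM scale (limma adjusted p from 0.411 to 0.57). Plasma cell genes summed to 249 to 331 CPM in SJQYD, 175 to 364 CPM in model and 144 to 239 CPM in control glands. Most of that sum came from Jchain, the joining chain of secreted antibodies, and Derl3, a protein of the endoplasmic reticulum. Jchain averaged 119 CPM in SJQYD, 145 CPM in model and 34.6 CPM in control glands and was not called. Derl3 ran the other way between model and control, at 145 CPM in SJQYD, 105 CPM in model and 142 CPM in control glands, and was not called either. Irf4, a transcription factor of activated lymphocytes and plasma cells, was the 1 gene of these 7 that was called. It averaged 2.57 ± 0.518 CPM in SJQYD, 3.05 ± 1.02 CPM in model and 0.866 ± 0.631 CPM in control glands (SD, n = 5 each), and rose both in model against control (log2 fold change 1.80, edgeR adjusted p = 0.0258) and in SJQYD against control (1.55, adjusted p = 0.029). The first call was lost without control 1 or 5 or model 1 or 2 (adjusted p up to 0.0633), and the second without control 1, 3 or 5 or SJQYD 1, 2 or 5 (up to 0.0758).

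Further genes of the cycle were read from lists of other replication, mitosis, G1 control and p53 target genes. Of 55 other mitosis genes tested none was called in any comparison by edgeR, and at an unadjusted p under 0.05 they gave 1 higher and 5 lower for SJQYD against model, 1 and 2 for model against control, and 1 and 8 for SJQYD against control. Over all genes tested, 8.09% were higher and 8.1% lower at that level for SJQYD against model, 11.6% and 10.3% for model against control, and 13.4% and 13.2% for SJQYD against control. For SJQYD against model 45 of the 55 lay below 0, against 53.2% of all genes, with a median of -0.47. Their smallest p was that of Espl1, separase, at 0.486 ± 0.121 CPM in SJQYD and 1.22 ± 0.503 CPM in model glands (adjusted p = 0.0604). The 37 other replication genes had a median of -0.11 in that comparison, with none called, 1 higher and 5 lower at an unadjusted p under 0.05.

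Between model and control glands 1 of the 37 replication genes rose, Pold1, the catalytic subunit of DNA polymerase delta, at 13.6 ± 3.48 CPM in model and 8.54 ± 1.03 CPM in control glands (edgeR adjusted p = 0.0287). That call was lost without control 1, 4 or 5 or model 1, 2 or 5 (adjusted p up to 0.0832). It was also lost in the fit of 2 groups (edgeR adjusted p = 0.0541) and in the FPKM fit without a filter (limma adjusted p = 0.0826). Of 33 G1 genes Ccnd3, a D-type cyclin with a large role in lymphocytes, rose, at 101.8 ± 10.3 CPM in model and 64.9 ± 5.14 CPM in control glands (adjusted p = 0.00201). SJQYD glands held 103.3 ± 7.43 CPM of Ccnd3 (adjusted p = 0.000617 against control), and both calls held in every fit that left out 1 library. Of 20 p53 targets Bax, a promoter of apoptosis, rose, at 31.0 ± 2.74 CPM in model and 21.2 ± 3.18 CPM in control glands (adjusted p = 0.0105). Pold1, Ccnd3 and Bax were each the only call of their list for model against control, where 5.07% of all genes were called.

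Between SJQYD and model glands Wee1, the kinase that restrains Cdk1, rose, at 2.51 ± 0.668 CPM in SJQYD and 1.02 ± 0.474 CPM in model glands (edgeR adjusted p = 0.0407), with control glands at 2.10 ± 0.531 CPM. Bbc3, a p53 target that promotes apoptosis, fell, at 2.64 ± 0.634 CPM in SJQYD and 5.17 ± 1.57 CPM in model glands (adjusted p = 0.0367). Each was the only call of its list, of 33 G1 genes and 20 p53 targets, where 2.75% of all genes were called. Both calls were close to the threshold: that of Wee1 was lost without control 3, model 1, 3 or 5, or SJQYD 1, 2, 3 or 5 (adjusted p up to 0.0974), and that of Bbc3 without model 2 or 4 or SJQYD 1, 2, 4 or 5 (adjusted p up to 0.0968). Neither was called in the 3 FPKM fits (limma adjusted p up to 0.345 for Wee1 and 0.423 for Bbc3) or without the 3 parotid-rich libraries (0.155 and 0.116).

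Between SJQYD and control glands Gmnn, geminin, the inhibitor of replication licensing, fell to 0.940 ± 0.317 CPM in SJQYD glands, against 2.72 ± 0.945 CPM in control glands (edgeR adjusted p = 0.00354), and the call held without any 1 library. Rbl2, a pocket protein of the DREAM complex, also fell, at 12.9 ± 1.14 CPM in SJQYD and 19.3 ± 1.72 CPM in control glands (adjusted p = 0.00569), although it was not called on the FPKM scale (limma adjusted p = 0.916). Of the 37 other replication genes 1 was called higher and 2 lower in this comparison. Of 33 G1 genes 2 were called in each direction, and of 20 p53 targets 2 higher and 3 lower. Over all genes tested 5.22% were called higher and 5.9% lower. Of the replication list Prim2, a primase subunit, fell (adjusted p = 0.0301) and Tk1, thymidine kinase, rose (adjusted p = 0.0421). Of the G1 list E2f1, an activating E2F factor, fell (adjusted p = 0.0213) and E2f4, an E2F factor of the DREAM complex, rose (adjusted p = 0.0367). Of the p53 list Ccng2, Ccng1 and Rrm2b fell, and Bax and Mdm2 rose. Of these, Bax lost its call without SJQYD 2 (adjusted p = 0.0521), Ccng2 without control 5 or SJQYD 2 (up to 0.0624), E2f1 without control 1, control 5 or SJQYD 4 (up to 0.0694), and Prim2 without control 1, control 3, SJQYD 4 or SJQYD 5 (up to 0.0768). Ccng1, E2f4, Mdm2, Rrm2b and Tk1 lost theirs in 7 to 9 of the 15 fits that left out 1 library, with adjusted p-values up to 0.103. On the FPKM scale several of these calls were also lost. Ccng1 turned to 0.13 for log2(FPKM + 1) and to 0.14 for log2(FPKM + 0.1) (limma adjusted p up to 0.586), and Ccng2 was no longer called in any of the 3 FPKM fits (up to 0.456). In the FPKM fit without a filter E2f1 (limma adjusted p = 0.393), Prim2 (0.595), Rrm2b (0.98), Tk1 (0.0636), Mdm2 (0.0775) and Gmnn (0.071) were not called.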

How the data were processed

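RNA of 15 submandibular glands was read from 2 deposited tables, whole-number counts of 55401 genes and, for the 32479 with any count, FPKM values that the authors scaled to gene length and library size. Per the labels' protocols, oligo-dT selected RNA was made into dUTP libraries with molecular identifiers. The submitters' processing notes name HISAT2 2.0.4, StringTie 1.3.4d, UMI-tools, cutadapt 1.9, edgeR, DESeq2 and the build mm9, without their roles, but 87.5% of the gene coordinates equal those of GRCm38 in an annotation of that build. The deposited counts pile up at 4 (14040 values, against 8483 at 3 and 4460 at 5), so floors of 3 counts cover counting error only and may be too low. Between libraries of a group the chi-square of the counts was at least 74.0 per gene, far above sampling noise.

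The members and lists were chosen with earlier results of these data known. Counts were tested with edgeR 4.0.16 in R 4.3.3: default expression filter by group (18136 genes), TMM factors, robust quasi-likelihood fit of all 15 libraries with a mean per group, and Benjamini-Hochberg adjustment over all genes tested, with calls at an adjusted p under 0.05. Adjusted p-values are from this fit unless another tool is named. Alternatives were RLE and upper-quartile factors, other filters, DESeq2 1.42.0, limma 3.58.1 on log2(FPKM + 1) and log2(FPKM + 0.1), fits of 2 groups, a replicate block, other thresholds and leaving out libraries. The script was tested on simulated counts with known changes, placed in genes drawn from all genes tested. It recovered 35% of 2-fold changes for SJQYD against model, 41% for model against control and 43% for SJQYD against control. For 4-fold changes it recovered 71%, 71% and 72%. Full values were given for Mki67, Top2a, Ccnb1, Cdk1, Pcna, Mcm2 to Mcm7, called members and the 4 smallest p-values of each comparison, and Foxm1 was added after its values were seen. Genes of the other cell cycle, p53 and immune lists were named where called. Same-numbered libraries of different groups did not deviate together in every pair (correlations -0.32 to 0.26, over 0.1 in 4 of 15), so numbers were not taken as pairs. Of the marker lists, those of gland parts, muscle, fat, basal ducts and red cells were used only to check the tissue; of these Bhlha15, Tnnt3 and Hba-a2 were called for model against control, and Tnnt3 and Trp63 for SJQYD against control.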

Additional observations from a re-analysis of the deposited data

Results flagged for a closer look

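A library was set apart from the other 4 of its group in 6 of the 120 groups of values examined (5.0%). The rule used the gap between that library and the nearest of the others, relative to the range of the group. For independent groups chance alone gives about 1 in 20. These groups are not independent, since the same 15 libraries were read over genes and their sums, so that rate cannot judge the flags. All 6 flags concern SJQYD libraries. SJQYD 3 was the highest of its group for Mki67 at 7.25 CPM (the other 4 at 2.59 to 3.74 CPM), for Mcm6 at 6.43 CPM (2.45 to 3.13 CPM), for Mcm5 at 3.43 CPM (0.824 to 1.37 CPM), for Racgap1 at 2.44 CPM (0.672 to 1.01 CPM) and for Bub1b at 1.09 CPM (0.173 to 0.437 CPM). SJQYD 3 also held the highest T cell marker sum of its group, 99.8 CPM, and a Xist level of 1.01 CPM, and the part of either in these values was not tested. SJQYD 5 was the highest of its group for Prc1 at 3.14 CPM (1.06 to 1.62 CPM), and without it the log2 fold change of Prc1 for SJQYD against control was 1.24 (edgeR adjusted p = 0.126).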

How the results depend on the processing

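For SJQYD against model, 0 members were called in every alternative run. For model against control 1 member was called by DESeq2 and 1 at an adjusted p under 0.1. For SJQYD against control, in place of 2 called, 1 was called without the low-count filter, in the fit of 2 groups, under the replicate block and without the 3 parotid-rich libraries. The count was 0 in the 3 FPKM fits, at an adjusted p under 0.01 and without those 3 libraries and SJQYD 3 (added after the data were seen). Members without overlap for SJQYD against model, 2 in the main setting, numbered 0 in the 3 FPKM fits and 5 without the 4 libraries. For SJQYD against control, 1 in the main setting, they numbered 0 in the FPKM fits with a filter and 4 without the 4 libraries. The median for SJQYD against control was 0.12 for log2(FPKM + 1) and 0.27 for log2(FPKM + 0.1), with all genes at 0.33 and 0.54, and that for SJQYD against model was -0.0667 for log2(FPKM + 1) without a filter.

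With 1 library left out, members called ranged from 0 to 1 for model against control and from 1 to 2 for SJQYD against control, where the call lost was that of Prc1. Members without overlap ranged from 0 to 2 for model against control, from 2 to 3 for SJQYD against model and from 1 to 2 for SJQYD against control. Medians ranged from -0.004 to 0.37 for model against control, from -0.73 to -0.36 for SJQYD against model and from -0.62 to -0.23 for SJQYD against control. Mki67 for SJQYD against control turned to 0.0897 for log2(FPKM + 1), with and without the filter, and 0.27 for log2(FPKM + 0.1), and ranged from -0.53 to 0.0433, the value without control 5, with 1 library left out. Ccng1 in that comparison turned to 0.13 and 0.14 in the FPKM fits. The cause of these changes was not tested. The replicate block ended no other call of a member, but it ended those of C1qa, Bbc3, Wee1, Mdm2 and Tk1 (adjusted p from 0.0508 to 0.0742). Counts per library ran from 0 to 50 for Cenpf, 4 to 34 for Ccnb1, 128 to 601 for Mki67 and 367 to 998 for Mcm7, and the smallest difference that could have been seen was not computed.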
